A study of Mus musculus with 37 samples.

Results

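Intact mammary glands of female mice collected 12 weeks after irradiation or sham treatment were compared with glands collected 4 weeks after it, over all 4 treatments together. The comparison took in all 12 arrays of week 12 and all 13 arrays of week 4, which are 25 of the 37 arrays of the study. Arrays were chosen by their labelled week alone. Treatment entered the model as a block, so that each treatment had its own level and a single difference between the weeks was fitted. Every gene with a usable probe set was considered: 18820 genes had a probe set with a single gene symbol, the one with the highest mean represented a gene with several, and 13174 passed a filter on low values.

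The week 12 groups were 100 cGy gamma, 30 cGy Si, 10 cGy Si and sham, each with 3 arrays, and the week 4 groups were the same 4 treatments with 3 arrays each, except sham with 4. Gamma rays ionize sparsely, and the silicon ions (Si, 350 MeV/amu) ionize densely along their tracks. All mice were female BALB/c, all had 1 inguinal gland cleared of its epithelium while young, and the opposite gland, left intact, gave the RNA. They were irradiated or sham treated at 10 weeks of age after transport to the irradiation site, and were moved back before either collection, at about 14 weeks of age for week 4 and about 22 weeks for week 12. Time after exposure, age and time since transport moved together and cannot be told apart, and every group, sham included, shared the surgery and the transport. The labels name separate samples but not separate animals, and every p-value is therefore set by sample-to-sample spread that could be technical.

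The adult mammary gland is a tree of epithelial ducts, with luminal cells of a hormone-sensing and a milk-secreting type and basal cells around them, set in a fat pad of white adipocytes, fibroblasts and vessels. The inguinal pad also encloses a lymph node and lies against body wall muscle. Its adipocytes and secretory epithelium make fatty acids and sterols from acetyl-CoA, under transcription factors of the SREBP family, which are switched on when membranes are short of sterol or when insulin is high. Glucocorticoids, adrenal hormones that rise with stress and with the daily rhythm, act through a nuclear receptor that switches on a known set of transcripts in fat, epithelium and immune cells alike.

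Values are log2 expression per probe set, and differences are log2 differences, week 12 minus week 4, ± SE from limma. Markers of the gland were present on all 25 arrays. The luminal keratin gene Krt8 lay at 9.94 to 11.45 at week 12, against 10.18 to 11.63 at week 4, and the adipocyte hormone gene Adipoq at 11.21 to 11.66 at week 12, against 11.03 to 11.88 at week 4. Transcripts of the neighbouring tissues varied far more between arrays: the T cell gene Cd3e ranged from 4.86 to 8.0 at week 12, against 4.42 to 10.23 at week 4, and the muscle actin gene Acta1 from 5.92 to 11.31 at week 12, against 5.09 to 11.72 at week 4. In whole glands, fewer cells of a type and less RNA per cell cannot be told apart. The brown fat gene Ucp1 had low medians, 3.30 at week 12 and 3.26 at week 4. It ranged from 3.00 to 4.70 at week 12, against 3.03 to 5.04 at week 4. Cidea, another brown fat gene, ranged from 4.63 to 7.45 at week 12, against 4.63 to 7.29 at week 4. The liver gene Alb, included as a marker of tissue that should be absent, was not low (6.95 to 9.76 at week 12, against 7.44 to 11.22 at week 4). The insulin gene Ins2, included for the same reason, was low (3.00 to 3.51 at week 12, against 2.91 to 3.68 at week 4). Correlations between the 25 arrays had a median of 0.970. Each array was also correlated with all others of the 37. Among the 25, sham week 4 replicate 1 had the lowest median of these correlations, 0.946.

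Between week 12 and week 4, 112 of 13174 genes differed in limma at an adjusted p under 0.05, which is 0.85% of the genes tested. Of these, 48 were higher at week 12 (0.364%) and 64 were lower (0.486%). Before adjustment, 2030 genes (15.4%) passed a p of 0.05, 833 of them higher and 1197 lower. The differences were small: the median was 0.39 among genes called higher and −0.31 among genes called lower, and 2 genes, Upk3a and Wfdc18, passed 1 on the log2 scale. No gene, called or not, had week 12 and week 4 arrays that did not overlap (0 of 13174 in either direction). The median over all genes tested was −0.010. Of the genes called higher, 46 of 48 were higher in each of the 4 treatments, and of those called lower, 64 of 64 were lower in each. Over all genes tested, 26.1% had the same sign in all 4 treatments, and choosing genes by their mean over treatments favours a shared sign. The 2 exceptions, Wfdc18 and Tmem238, were −0.07 and −0.03 in the 30 cGy Si glands.

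Some enzymes of sterol synthesis were higher at week 12. The pathway turns acetyl-CoA into mevalonate, then squalene and lanosterol, and then cholesterol. The sterol list of 20 measured genes holds enzymes of the pathway and also regulators such as Srebf2 and Insig1. Of the 20, 4 were called higher and 0 lower, where 0.364% of all genes were called higher. All 20 lay above 0 with a median of 0.50, and 19 had an unadjusted p under 0.05 (6.32% of all genes were higher at that threshold). Mvd, which makes isopentenyl pyrophosphate from mevalonate pyrophosphate, belongs to the mevalonate steps, Sqle opens the committed branch by oxidizing squalene, and Cyp51 and Hsd17b7 act after lanosterol.

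The promoters of these enzymes are where SREBP factors are known to act, usually beside the factor NF-Y, which binds the letters CCAAT. Promoter windows from RefSeq (GRCm38.p6, 250 bases before to 50 after the start of a gene) were at hand for 16 of the 20 sterol genes, among them 3 of the 4 called, and are shown here because these genes moved together. The 120 bases before the start of Cyp51 (chr5:4104698-4104817), Mvd (chr8:122443423-122443542) and Hsd17b7 (chr1:169969206-169969325), all on the minus strand, read as follows, 5′ to 3′, with CCAAT or its reverse ATTGG in capitals.
Cyp51: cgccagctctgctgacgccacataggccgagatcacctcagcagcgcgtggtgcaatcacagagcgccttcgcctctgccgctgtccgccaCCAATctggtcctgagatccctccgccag
Mvd: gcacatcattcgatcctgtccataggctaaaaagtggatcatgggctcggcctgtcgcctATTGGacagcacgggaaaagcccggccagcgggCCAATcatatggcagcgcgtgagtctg
Hsd17b7: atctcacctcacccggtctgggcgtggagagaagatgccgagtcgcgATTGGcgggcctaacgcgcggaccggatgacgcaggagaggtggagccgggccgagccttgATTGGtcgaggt
Cyp51 has 1 such motif in the stretch shown, Mvd has 2 and Hsd17b7 has 2. On either strand, CCAAT was found in the windows of 16 of 16 sterol genes (16 of their 19 windows), and in 37.4% of all 32851 windows, or 41.1% of the 27025 genes with any. A longer SREBP motif, TCACNCCAC on either strand, was found for 1 of the 16, Hmgcs1, the early enzyme HMG-CoA synthase. It was in 1.24% of all windows, or 1.44% of the genes with any. These are matches of letters and not measured binding sites.

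Cyp51, lanosterol demethylase, had the smallest adjusted p of the comparison, shared with Mvd and 3 other genes. Its lowest, median and highest values were 6.17, 6.95 and 8.22 at week 12, against 5.73, 6.08 and 6.78 at week 4. The 3 highest arrays were the 30 cGy Si glands of week 12, 7 of 12 week 12 arrays lay above every week 4 array, and both the lowest week 12 array and the highest week 4 array were sham glands. It rose by 0.87 ± 0.13, a 1.82-fold difference (adjusted p = 0.00677).

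Mvd, mevalonate decarboxylase, had 4.93, 5.41 and 6.29 at week 12, against 4.45, 4.66 and 5.31 at week 4 as lowest, median and highest value. Of the week 12 arrays 8 of 12 lay above every week 4 array, and the highest week 4 array was a sham gland. Mvd rose by 0.76 ± 0.12, 1.69-fold (adjusted p = 0.00677). Sqle, squalene epoxidase, had 6.14, 7.09 and 7.67 at week 12, against 5.75, 6.26 and 7.10 at week 4. Its weeks overlapped more, with 6 of 12 week 12 arrays above all of week 4, and it rose by 0.64 ± 0.14 (adjusted p = 0.0235).

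Hsd17b7, which reduces a keto group late in the pathway, had 6.17, 7.03 and 7.50 at week 12, against 5.62, 6.47 and 6.94 at week 4. The 2 lowest week 12 arrays were sham glands, and it rose by 0.58 ± 0.14 (adjusted p = 0.0472). This call rested on the arrays: it held in 3 of the 25 fits that left out 1 array each, in which the array removed was sham week 4 replicate 1 (0.615) or sham week 12 replicate 1 (0.643) or 2 (0.658), and the difference fell to 0.503 without 10 cGy Si week 4 replicate 2. Cyp51, Mvd and Sqle were called in all 25 of these fits, but 0 sterol genes were called when all arrays of gamma, 30 cGy Si or 10 cGy Si were left out.

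**Figure D1:**
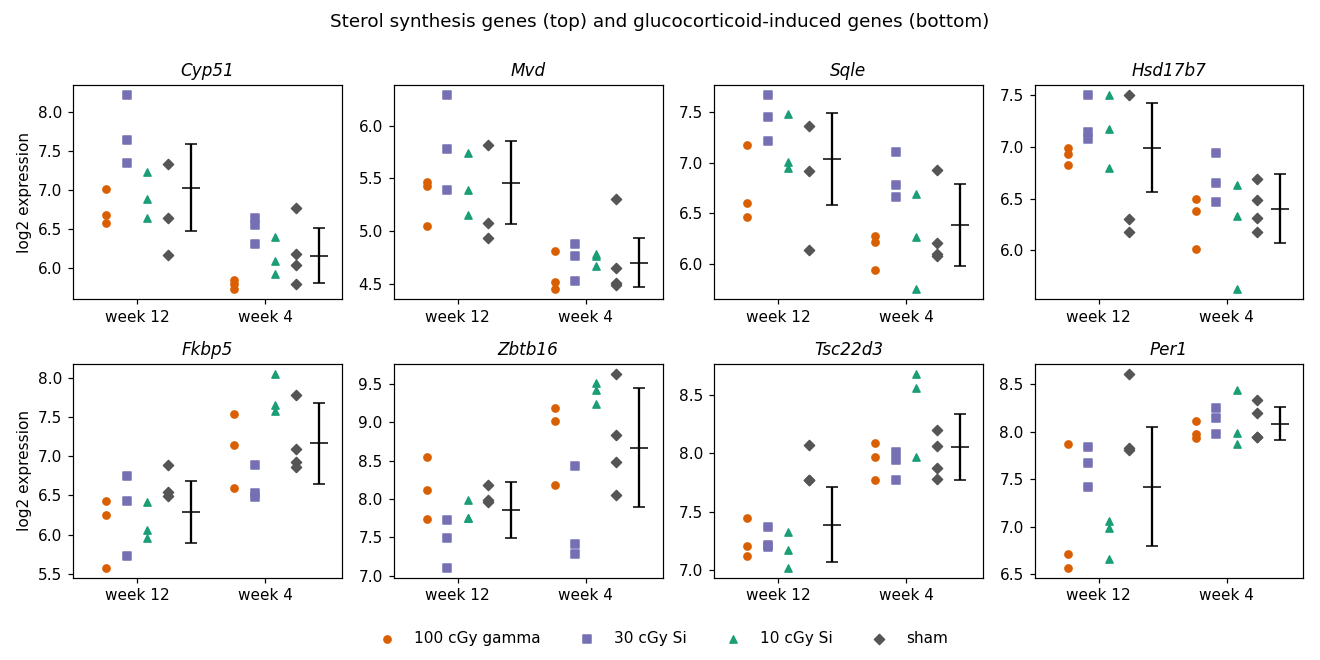
Log2 expression of 4 sterol synthesis genes (top) and 4 glucocorticoid-induced genes (bottom) on each array, week 12 left of week 4, with treatments as symbols and the mean ± SD of a week as the bar. The top genes sit higher at week 12 and the bottom genes lower, and in every panel the weeks overlap.

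Members of the sterol list that were not called lay on the same side. Idi1, isopentenyl isomerase, had 6.86, 8.18 and 9.10 at week 12, against 6.00, 7.30 and 8.02 at week 4 and differed by 0.87 ± 0.21 (adjusted p = 0.0524). Lss, lanosterol synthase, differed by 0.61 ± 0.15 (adjusted p = 0.0596), and Insig1, the sterol-regulated retention factor of SREBP, by 0.60 ± 0.19 (adjusted p = 0.128). The mean level of the 20 genes ranged from 6.84 to 8.10 at week 12, against 6.67 to 7.44 at week 4, highest in 30 cGy Si replicate 3 and lowest in sham replicate 2 among week 12 arrays. Median differences of the list within treatments were 0.61 for gamma, 0.63 for 30 cGy Si, 0.47 for 10 cGy Si and 0.24 for sham. Removing sham week 4 replicate 1 brought the number of sterol genes called to 15, and removing replicate 2 or 1 of the week 12 sham glands brought it to 13 or 7.

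The largest differences among fatty acid synthesis genes exceeded those among sterol genes, but with wider spread, and 0 of 26 were called in limma. Of the 26, 25 lay above 0 (46.3% of all genes) with a median of 0.38, below the 0.50 of the sterol list. An unadjusted p under 0.05 was reached by 17, all of them higher (6.32% of all genes). Elovl6, the elongase of palmitate, had 8.46, 10.89 and 11.95 at week 12, against 8.17, 9.38 and 12.07 at week 4, with the extremes of each week nearly the same, and differed by 1.36 ± 0.41 (adjusted p = 0.104). Acss2, which makes acetyl-CoA from acetate, had 7.28, 8.66 and 10.03 at week 12, against 6.75, 7.47 and 9.72 at week 4 and differed by 1.07 ± 0.30 (adjusted p = 0.0844). The values were 1.03 ± 0.34 (adjusted p = 0.152) for Acly, which makes cytosolic acetyl-CoA from citrate, 0.93 ± 0.29 (adjusted p = 0.122) for Me1, a source of NADPH, 0.82 ± 0.25 (adjusted p = 0.112) for Acaca, acetyl-CoA carboxylase, and 0.79 ± 0.30 (adjusted p = 0.208) for Tkt, transketolase. Sham week 4 replicate 1 held the highest week 4 mean of this list, and without it Elovl6 was at 1.6 (adjusted p = 0.0128), Acss2 at 1.25 (adjusted p = 0.00769) and Acly at 1.22 (adjusted p = 0.0203). Without sham week 12 replicate 2, Elovl6 was at 1.61 (adjusted p = 0.0315) and Acss2 at 1.22 (adjusted p = 0.0346). White adipocyte genes, which share cells with this pathway, had a median of 0.01 with 0 of 23 called.

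**Figure D2:**
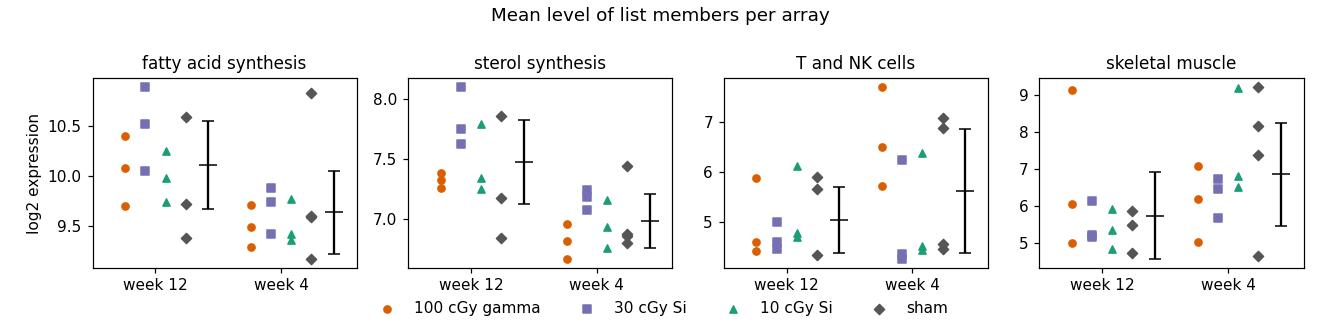
Mean log2 level of the members of 4 gene lists on each array, week 12 left of week 4, with treatments as symbols and mean ± SD as the bar. Sterol and fatty acid synthesis sit higher at week 12 in the irradiated glands, the sham glands of both weeks mix, 1 week 4 sham array is high in both lists, and the levels of T and NK cell genes and of skeletal muscle genes spread widely in both weeks.

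Some genes induced by glucocorticoids were lower at week 12. Of 23 measured, 4 were called lower and 0 higher, where 0.486% of all genes were called lower. In all, 19 of 23 lay below 0 (53.7% of all genes) with a median of −0.23, and 12 were lower at an unadjusted p under 0.05 (9.09% of all genes). Median differences of the list within treatments were −0.28 for gamma, −0.27 for 30 cGy Si and −0.40 for 10 cGy Si, and 0.0096 for sham. Fkbp5, a co-chaperone that damps the glucocorticoid receptor, had 5.57, 6.42 and 6.89 at week 12, against 6.49, 7.10 and 8.06 at week 4. The 10 cGy Si glands were among the highest of week 4, and 8 of 12 week 12 arrays lay below every week 4 array. Fkbp5 fell by 0.86 ± 0.17, to 0.55 of its week 4 level (adjusted p = 0.0158), the largest decrease among the called genes.

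Tsc22d3, which encodes the anti-inflammatory protein GILZ, had 7.02, 7.27 and 8.08 at week 12, against 7.77, 7.97 and 8.68 at week 4. Of the week 12 arrays 10 of 12 lay below all of week 4, and the sham glands were the highest of week 12. It fell by 0.65 ± 0.11 (adjusted p = 0.00894). Zbtb16, a zinc finger transcription factor induced by glucocorticoids in many cells, had 7.10, 7.86 and 8.55 at week 12, against 7.29, 8.83 and 9.63 at week 4. Its week 4 arrays spread widely, with the 10 cGy Si glands high and most 30 cGy Si glands low, and it fell by 0.80 ± 0.18 (adjusted p = 0.0341).

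Per1, a repressor of the circadian clock that glucocorticoids also induce, had 6.57, 7.55 and 8.61 at week 12, against 7.87, 7.99 and 8.45 at week 4. The week 4 arrays were tightly grouped, the week 12 arrays were not, and 1 week 12 sham gland was the highest of all 25. Per1 fell by 0.64 ± 0.15 (adjusted p = 0.0443). Its call held in 7 of 25 fits without 1 array, those without 30 cGy Si week 4 replicate 1, sham week 4 replicates 1, 3 or 4, gamma week 12 replicate 1, 30 cGy Si week 12 replicate 1 or sham week 12 replicate 2, with differences over the 25 fits from −0.744 to −0.577. Zbtb16 kept its call in 14 of 25, and lost it without gamma week 4 replicates 1 or 2, 30 cGy Si week 4 replicate 1, any 10 cGy Si array, gamma week 12 replicate 2 or 30 cGy Si week 12 replicate 2 (−0.865 to −0.725 over all fits). Fkbp5 and Tsc22d3 kept theirs in all 25. The number of glucocorticoid genes called lower was 8 without sham week 4 replicate 1 and 2 without gamma week 4 replicates 1 or 2, any 10 cGy Si array, gamma week 12 replicate 2 or 30 cGy Si week 12 replicate 2. It was 0 when all arrays of gamma, 30 cGy Si or 10 cGy Si were left out.

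Ddit4, an inhibitor of the growth kinase complex mTORC1, differed by −0.63 ± 0.21 (adjusted p = 0.139) and Cdkn1a, the cell cycle inhibitor p21, by −0.49 ± 0.16 (adjusted p = 0.139), neither called. Promoter windows were searched for the receptor's palindrome, with the arms GNACA and TGTNC and 3 bases between them. It was found for 3 of the 20 list members with a window (Sgk1, Mt1 and Map3k6, none of them called). The palindrome was in 0.475% of all windows, or 0.537% of the genes with any. Of 18 clock genes measured, Per1 was the only 1 called (0.85% of all genes), 11 lay below 0 (53.7% of all genes) and the median was −0.05. Arntl, the activator BMAL1, differed by 0.10 ± 0.17 (adjusted p = 0.81), Per2 by −0.14 ± 0.17 (adjusted p = 0.73), Cry1 by −0.06 ± 0.09 (adjusted p = 0.805), Ciart by −0.45 ± 0.25 (adjusted p = 0.399) and Nr1d2 by 0.04 ± 0.08 (adjusted p = 0.848). The hour at which glands were collected is not known here.

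Of the 10 genes with the largest called rises, 3 belong to mammary epithelium (Wfdc18, Ltf and Gabrp), and 1 is best known from the bladder. That gene, Upk3a, a uroplakin of the kind that coats urothelium, had 4.57, 5.95 and 6.88 at week 12, against 4.00, 5.04 and 5.26 at week 4. Of the week 12 arrays 10 of 12 lay above all of week 4, and it rose by 1.08 ± 0.22, 2.12-fold, the largest called difference (adjusted p = 0.0179). Wfdc18, a whey acidic protein family member of the secretory lineage, had 8.95, 9.64 and 10.89 at week 12, against 7.92, 8.65 and 10.23 at week 4. Its weeks overlapped widely, with 4 of 12 week 12 arrays above all of week 4, and it rose by 1.03 ± 0.24 (adjusted p = 0.0418).

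Ltf, lactoferrin, an iron-binding milk protein, had 7.89, 9.87 and 10.65 at week 12, against 7.97, 8.66 and 9.37 at week 4. A gamma gland of week 12 was the lowest of all 25 arrays while 10 of 12 week 12 arrays lay above all of week 4, and Ltf rose by 0.97 ± 0.23 (adjusted p = 0.0443). Gabrp, a receptor subunit found in luminal progenitor cells, had 5.48, 5.86 and 7.16 at week 12, against 4.83, 5.33 and 5.67 at week 4 and rose by 0.81 ± 0.16 (adjusted p = 0.0179). Upk3a and Gabrp were called in all 25 fits without 1 array, Wfdc18 in 9 (0.891 to 1.149) and Ltf in 6 (0.859 to 1.139).

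In the secretory list as a whole 2 of 18 were called higher (0.364% of all genes), 10 lay above 0 (46.3% of all genes) and 8 below, and the median was 0.04. Cd14, a lipopolysaccharide receptor, differed by 0.46 ± 0.12 (adjusted p = 0.0773), and the milk genes Lalba, alpha-lactalbumin, and Csn2, beta-casein, by −0.61 ± 0.36 (adjusted p = 0.42) and −0.48 ± 0.40 (adjusted p = 0.586). Keratins and junction genes that all epithelium shares had a median of 0.11, with 0 of 19 called and mean levels of 7.08 to 8.47 at week 12, against 7.34 to 8.29 at week 4. Among hormone-sensing luminal genes 0 of 16 were called, with Cited1, an estrogen receptor cofactor, at 0.47 ± 0.12 (adjusted p = 0.0584) and Wnt4, the progesterone-induced ligand, at −0.35 ± 0.13 (adjusted p = 0.21). Proliferation genes had 0 of 17 called and a median of 0.15.

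The remaining genes called higher were of mixed function. Egr1, a zinc finger factor of the immediate early response, had 7.51, 7.94 and 8.23 at week 12, against 5.86, 7.11 and 7.73 at week 4. The lowest week 4 array, a sham gland, stood well below the rest, 9 of 12 week 12 arrays lay above all of week 4, and Egr1 rose by 0.78 ± 0.15 (adjusted p = 0.0158). Of 23 immediate early genes 1 was called higher (0.364% of all genes) and 1 lower (0.486% of all genes). Fos differed by 0.50 ± 0.25 (adjusted p = 0.331) and Egr2 by 0.41 ± 0.25 (adjusted p = 0.446), and Klf4 fell by 0.30 ± 0.07 (adjusted p = 0.0443). Selp, the adhesion protein P-selectin of vessel walls and platelets, had 6.00, 6.64 and 7.24 at week 12, against 5.73, 6.07 and 6.35 at week 4 and rose by 0.58 ± 0.11 (adjusted p = 0.0143), with 10 of 12 week 12 arrays above all of week 4. Endothelial genes as a list had a median of 0.01 with 0 of 25 called.

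Ptger3, a prostaglandin E2 receptor of adipocytes, rose by 0.66 ± 0.13 (adjusted p = 0.0179), with 7.90, 8.49 and 9.18 at week 12, against 7.23, 7.69 and 8.51 at week 4. Ddo, which oxidizes D-aspartate, rose by 0.73 ± 0.13 (adjusted p = 0.0143), and Slc5a8, a transporter of short-chain fatty acids, by 0.62 ± 0.14 (adjusted p = 0.0274). Trhde, an enzyme that degrades thyrotropin-releasing hormone, rose by 0.62 ± 0.13 (adjusted p = 0.0259), the calpain gene Capn8 by 0.52 ± 0.11 (adjusted p = 0.0229) and the netrin receptor gene Unc5a by 0.61 ± 0.13 (adjusted p = 0.0237). Of these 6 genes, all but Slc5a8 (20 of 25) were called in every fit without 1 array. Ogfrl1 shared the smallest adjusted p of the comparison. It rose by 0.57 ± 0.09 (adjusted p = 0.00677), and 10 of 12 week 12 arrays lay above all of week 4 (7.36, 7.83 and 8.30 at week 12, against 7.0, 7.28 and 7.51 at week 4). Smaller rises included Npm1 (0.38 ± 0.09 (adjusted p = 0.0359)) and Ncl (0.30 ± 0.06 (adjusted p = 0.0235)), abundant proteins of the nucleolus, which were picked from the called genes after their values were seen. Another was the glutathione reductase gene Gsr (0.23 ± 0.05 (adjusted p = 0.0472)), the only 1 of 23 oxidative stress genes called, where 0.85% of all genes were called in either direction.

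The genes called lower outside the glucocorticoid list were of mixed function. Mertk, a receptor by which macrophages take up dying cells, had 7.18, 7.39 and 7.91 at week 12, against 7.48, 7.94 and 8.58 at week 4. The 3 highest arrays included 2 from 10 cGy Si glands of week 4, 9 of 12 week 12 arrays lay below all of week 4, and Mertk fell by 0.51 ± 0.10 (adjusted p = 0.019). It was the only 1 of 28 macrophage genes called (0.85% of all genes), and 24 of them lay below 0 (53.7% of all genes) with a median of −0.14. Il6ra, the interleukin 6 receptor, fell by 0.47 ± 0.09 (adjusted p = 0.0143), Jaml, an adhesion molecule of leukocytes, by 0.40 ± 0.07 (adjusted p = 0.00894), and Pim2, a survival kinase abundant in plasma cells, by 0.48 ± 0.11 (adjusted p = 0.0274).

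Thbs2, a matrix protein that restrains vessel growth, had 8.59, 8.77 and 9.26 at week 12, against 8.81, 9.31 and 9.83 at week 4 and fell by 0.49 ± 0.11 (adjusted p = 0.0266). Ltbp4, which holds latent TGF-beta in the matrix, had 7.67, 8.09 and 8.34 at week 12, against 8.06, 8.49 and 8.67 at week 4 and fell by 0.36 ± 0.08 (adjusted p = 0.025). Ltbp4 was the only 1 of 20 genes of the TGF-beta list called (0.85% of all genes). Trp53inp1 and Sesn1, both p53 targets of the stress response, fell by 0.45 ± 0.08 (adjusted p = 0.0143) and 0.29 ± 0.07 (adjusted p = 0.0466). They were 2 of 25 p53 targets called lower (0.486% of all genes), of which 19 lay below 0 (53.7% of all genes) with a median of −0.08, and Phlda3, another target, was at 0.47 ± 0.17 (adjusted p = 0.182).

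Vldlr, the very low density lipoprotein receptor, fell by 0.37 ± 0.08 (adjusted p = 0.0214), and Acer2, an alkaline ceramidase, by 0.37 ± 0.09 (adjusted p = 0.0413). Acer2 had 2 probe sets, whose differences between the means of the weeks were −0.374 and −0.095. Herpud1, a part of the machinery that removes misfolded proteins from the endoplasmic reticulum, fell by 0.31 ± 0.06 (adjusted p = 0.0149). In its stress list 17 of the 22 genes lay above 0 (46.3% of all genes), and Herpud1 was the only 1 called (0.85% of all genes). Foxo1, a transcription factor held in check by insulin, fell by 0.35 ± 0.06 (adjusted p = 0.0131) and was picked from the called genes after its value was seen. Among these, Mertk, Il6ra, Jaml, Ltbp4, Trp53inp1, Vldlr and Herpud1 were called in all 25 fits without 1 array, Thbs2 in 22, Pim2 in 21, Acer2 in 10 and Sesn1 in 5. Klf4 was called in 9 of 25 and Gsr in 7.

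**Figure D3:**
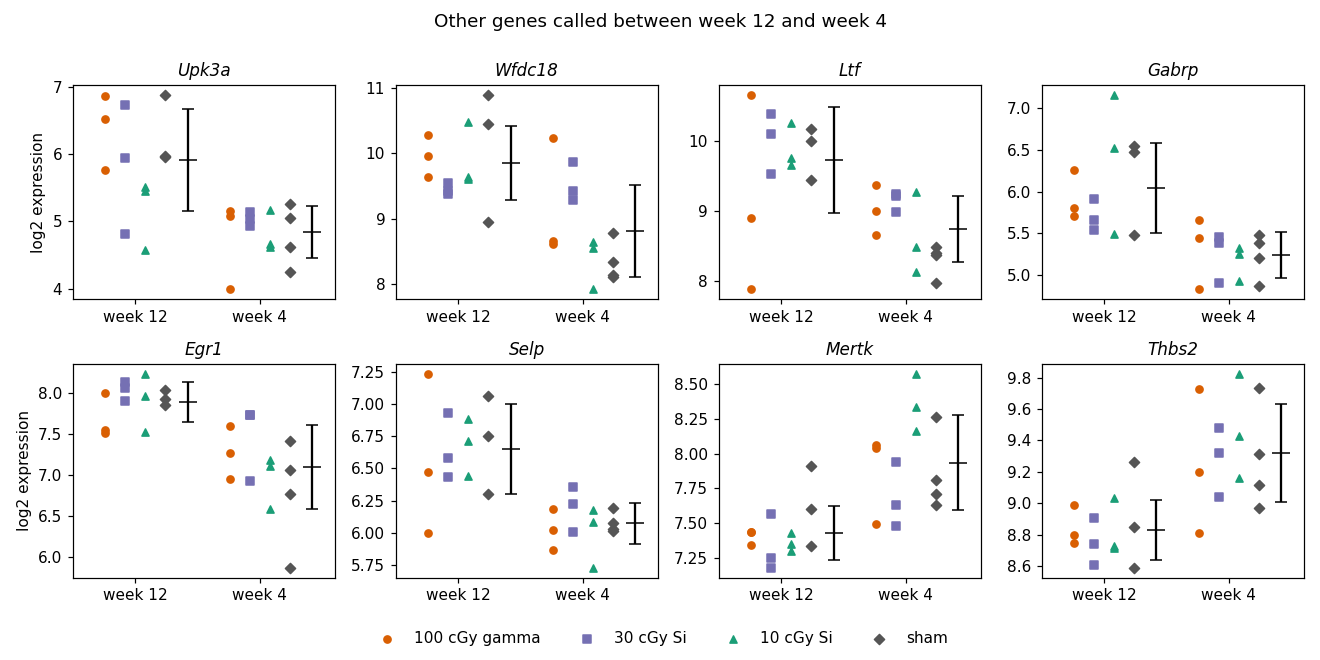
Log2 expression of 8 further called genes on each array, week 12 left of week 4, with treatments as symbols and mean ± SD as the bar. Upk3a, Wfdc18, Ltf, Gabrp, Egr1 and Selp sit higher at week 12 and Mertk and Thbs2 lower, and the weeks overlap in every panel.

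Genes of cells that come with the lymph node and the body wall had the lists with the lowest medians, yet 0 of their members were called in limma. Over all genes tested, 53.7% lay below 0 and 9.09% were lower at an unadjusted p under 0.05. Skeletal muscle genes had 25 of 26 below 0, 17 at an unadjusted p under 0.05 and a median of −1.37, with mean levels of 4.73 to 9.14 at week 12, against 4.66 to 9.22 at week 4. Pvalb, a calcium buffer of fast fibres, had 3.33, 4.99 and 10.04 at week 12, against 3.86, 6.60 and 10.67 at week 4 and differed by −1.82 ± 0.77 (adjusted p = 0.264). Within treatments the list's median was 0.66 in gamma glands, −0.93 in 30 cGy Si, −2.40 in 10 cGy Si and −2.25 in sham glands.

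T and NK cell genes had 18 of 18 below 0, a median of −0.61 and 1 at an unadjusted p under 0.05. Within treatments the list's median was −1.68 in gamma glands, −0.26 in 30 cGy Si, 0.05 in 10 cGy Si and −0.46 in sham glands. Lef1, a transcription factor of young T cells, differed by −0.99 ± 0.54 (adjusted p = 0.38) over all treatments, and by −2.96 ± 1.05 in gamma glands. B cell genes had 19 of 20 below 0 (median −0.63), lymph node stroma 10 of 11 (−0.60), and genes of dendritic cells and antigen presentation 16 of 17 (−0.24), with 0 called in each. Leaving out single arrays moved the T and NK cell median from −0.743 to −0.421.

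Since the levels of these transcripts varied widely between arrays, the model was also fitted with the mean levels of lymphocyte, muscle, epithelial and brown adipocyte genes of each array as covariates. Cyp51 was then at 0.809 (adjusted p = 0.000423), Mvd at 0.715 (adjusted p = 0.00151), Fkbp5 at −0.992 (adjusted p = 0.013) and Tsc22d3 at −0.694 (adjusted p = 0.0129). Sterol genes called numbered 10 and glucocorticoid genes 8. Over all genes, 181 were called higher and 130 lower, which took in 36 of the 48 and 38 of the 64. Sqle (0.461), Ltf (0.771), Gsr (0.191), Agpat4 (−0.37), Herpud1 (−0.239), Htra4 (−0.382), Klf4 (−0.241), Lrrc8c (−0.232), Ltbp4 (−0.25) and Sesn1 (−0.208) were no longer called. Wfdc18 stayed called but was at 0.63 (adjusted p = 0.0233). Idi1 at 0.985 (adjusted p = 0.0029), Acss2 at 0.926 (adjusted p = 0.0193) and Elovl6 at 1.25 (adjusted p = 0.0264) were called only with the covariates. Acly at 0.896 (adjusted p = 0.0773) and Ddit4 at −0.564 (adjusted p = 0.151) stayed uncalled.

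Connective tissue genes lay slightly below 0. Of all genes tested, 53.7% lay below 0 and 9.09% were lower at an unadjusted p under 0.05 in limma. Of 36 matrix and crosslinking genes 29 lay below 0 and 10 had an unadjusted p under 0.05, with a median of −0.15 and 0 called. P4ha2, a collagen hydroxylase, differed by −0.41 ± 0.11 (adjusted p = 0.0837), and Eln, elastin, by −0.34 ± 0.13 (adjusted p = 0.203). Of 19 collagens 16 lay below 0 (median −0.10, 0 called), with Col1a1 at −0.22 ± 0.18 (adjusted p = 0.592), Col3a1 at −0.20 ± 0.15 (adjusted p = 0.562) and Col4a1 at −0.11 ± 0.09 (adjusted p = 0.57). Fibroblast genes had 20 of 24 below 0 and a median of −0.14, with S100a4 at −0.33 ± 0.08 (adjusted p = 0.053) and the gelatinase gene Mmp2 at −0.37 ± 0.09 (adjusted p = 0.0596).

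Respiratory chain genes lay slightly above 0, with 28 of 29 on that side (46.3% of all genes), a median of 0.11 and 0 called. Uqcrc1, a core subunit of complex III, differed by 0.23 ± 0.08 (adjusted p = 0.163). Interferon response genes had 22 of 28 above 0 and a median of 0.10, ribosomal protein genes a median of 0.0031 and heat shock genes a median of 0.08, with 0 called in each. Over all 41 lists, 747 distinct genes were tested, of which 8 were called higher and 11 lower, where 0.364% and 0.486% of all genes were called in these directions.

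**Figure D4:**
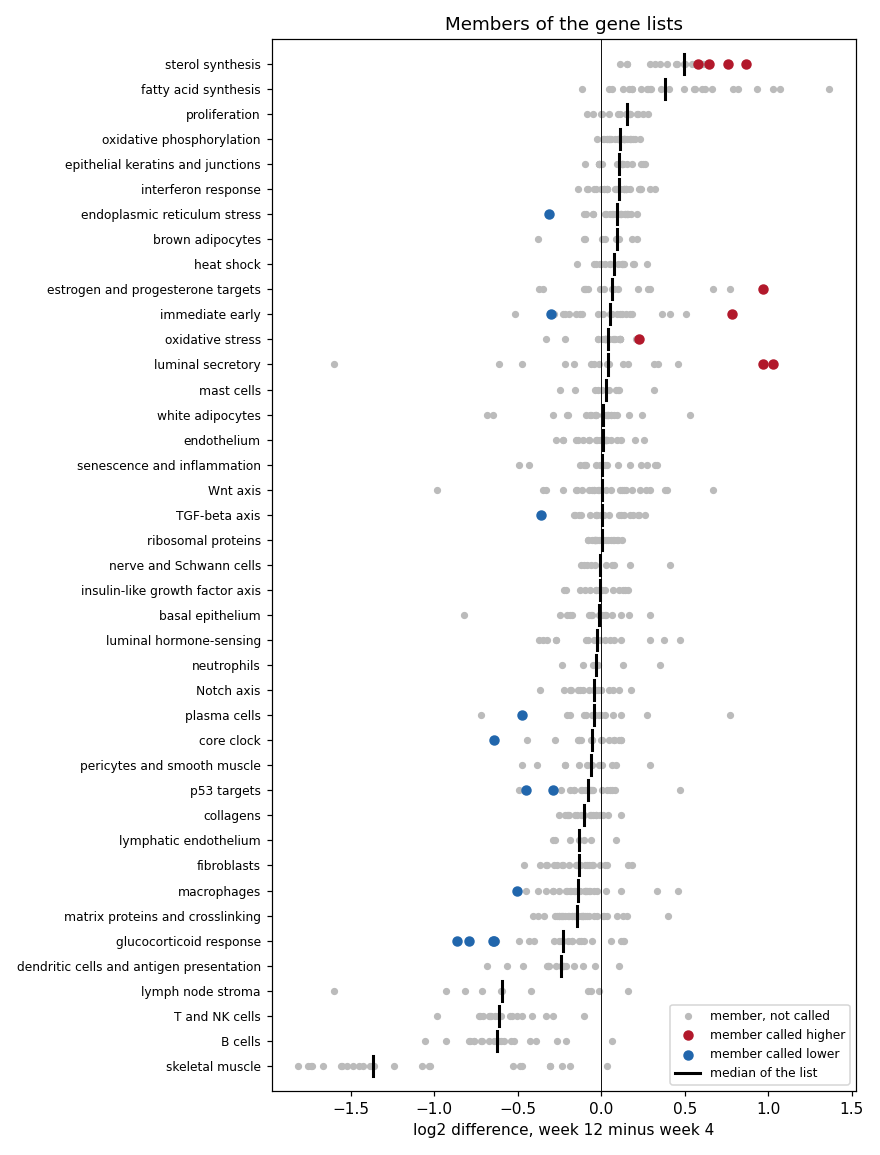
Log2 difference, week 12 minus week 4, of every tested member of the 41 gene lists, with called members in colour and a bar at the list's median. Sterol and fatty acid synthesis stand at the top, lymphocyte and muscle genes at the bottom without a call, and most lists straddle 0.

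Within single treatments few genes passed the threshold, with 3 arrays against 3, or 3 against 4 in sham. With a separate mean fitted to every 1 of the 8 groups, limma called 0 genes in gamma glands (6.73% at an unadjusted p under 0.05), 0 in 30 cGy Si (5.62%), 2 in 10 cGy Si (6.13%, and 0.0152% called) and 0 in sham glands (5.5%). The 2 were Tsc22d3, which fell by 1.23 ± 0.16 (adjusted p = 0.00225), and Aff1, a transcription elongation factor, which fell by 0.55 ± 0.09 (adjusted p = 0.0187). The count in 10 cGy Si was 1 without any 1 of 10 cGy Si week 4 replicates 1 or 2 or week 12 replicates 1, 2 or 3. It was 4 without gamma week 4 replicate 2 or 3, and 9 without sham week 4 replicate 1. In sham it was 38 without sham week 12 replicate 3, and in gamma 1 without gamma week 12 replicate 1.

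A moderated F test asked whether the difference between the weeks depended on treatment, and called 0 genes in limma, with 330 at an unadjusted p under 0.05 (2.5%). Each irradiation against sham gave 0 calls as well, with 439 genes (3.33%) at an unadjusted p under 0.05 for gamma, 554 (4.21%) for 30 cGy Si and 347 (2.63%) for 10 cGy Si. The smallest F test p belonged to Tsc22d3 (0.000571, adjusted p = 0.9998), which differed by −0.69 ± 0.16 in gamma, −0.65 ± 0.16 in 30 cGy Si, −1.23 ± 0.16 in 10 cGy Si and −0.11 ± 0.15 in sham glands. Next came Rccd1, which differed by −0.54 ± 0.12, 0.26 ± 0.12, −0.27 ± 0.12 and 0.11 ± 0.12 in the same order, and Lrwd1, Slc39a10 and Urad, with the same adjusted p.

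For some of the genes above, estimates in sham glands lay nearer to 0 than in irradiated glands, and for others further from 0. None of these genes was called in the test of that difference. Per1 was at −0.96 ± 0.26 in gamma, −0.48 ± 0.26 in 30 cGy Si, −1.20 ± 0.26 in 10 cGy Si and −0.02 ± 0.24 in sham glands (limma F test, unadjusted p = 0.0169). For Elovl6 the values were 1.61 ± 0.79, 2.20 ± 0.79, 1.96 ± 0.79 and, in sham, −0.09 ± 0.73 (unadjusted p = 0.159). Ddit4 stood at −1.09 ± 0.35, −1.07 ± 0.35 and −0.84 ± 0.35 after irradiation and 0.34 ± 0.33 in sham (unadjusted p = 0.0205). Cyp51 differed by 0.98 ± 0.27, 1.24 ± 0.27 and 0.79 ± 0.27 in the irradiated glands and 0.52 ± 0.25 in sham (unadjusted p = 0.272), while Selp was about level across treatments, at 0.55 ± 0.23, 0.45 ± 0.23, 0.68 ± 0.23 and 0.63 ± 0.22 (unadjusted p = 0.905). Sham lay furthest from 0 for Egr1, at 1.16 ± 0.28, against 0.41 ± 0.30, 0.57 ± 0.30 and 0.94 ± 0.30 (F test, unadjusted p = 0.273). So it did for Wfdc18, at 1.76 ± 0.39, against 0.80 ± 0.42, −0.07 ± 0.42 and 1.54 ± 0.42 (unadjusted p = 0.0206). For Ltf sham was at 1.55 ± 0.41, against 0.14 ± 0.44, 0.85 ± 0.44 and 1.25 ± 0.44 (unadjusted p = 0.144). The adjusted p of each of these F tests was 0.9998.

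The number of genes called depended on which treatments entered. The 3 irradiated treatments without sham gave 137 higher and 123 lower, while sham alone gave 0. Without gamma the counts were 3 and 1, without 30 cGy Si 2 and 0, and without 10 cGy Si 0 and 0. Each of these fits holds fewer arrays than the 25, the fit without sham included, and the cause of the changes was not tested.

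**Figure D5:**
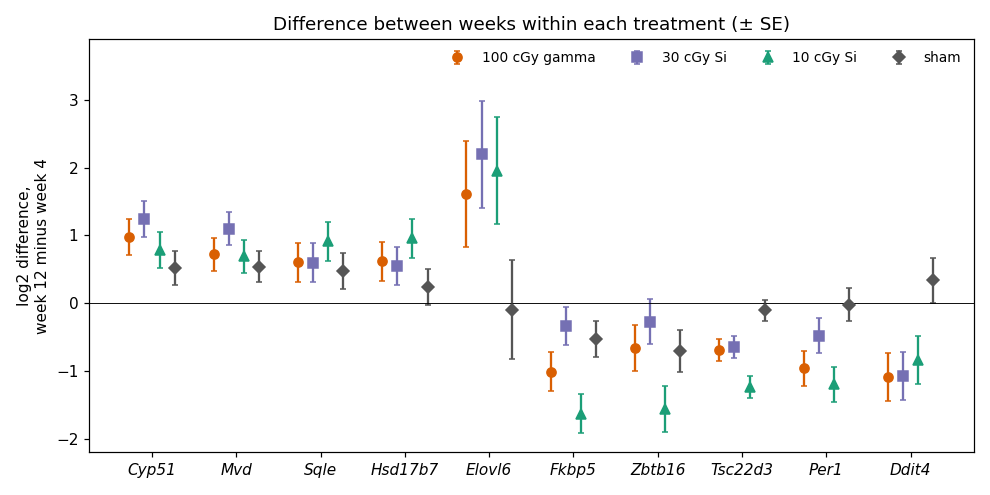
Log2 difference, week 12 minus week 4, within each treatment for 10 genes, as the estimate ± SE from the 8-group model, with irradiated treatments left of sham. Irradiated and sham estimates share a sign for the sterol genes, Fkbp5, Zbtb16, Tsc22d3 and Per1, and the sham estimate lies on the other side of 0 for Elovl6 and Ddit4.

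The number of calls also rested on single arrays. Leaving out each of the 25 arrays gave from 30 to 209 genes higher and from 39 to 295 lower. Both maxima came without sham week 4 replicate 1, and 97 higher and 105 lower were called without sham week 12 replicate 2. The number higher was 30 without 10 cGy Si week 4 replicate 1 or gamma week 12 replicate 3, and 31 without 10 cGy Si week 12 replicate 3. The number lower was 39 without 10 cGy Si week 4 replicate 1, 42 without 10 cGy Si week 4 replicate 2, and 41 without gamma week 12 replicate 3 or 10 cGy Si week 12 replicate 1. In all 25 fits, 25 of the 48 genes higher and 30 of the 64 lower were called.

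Glands of week 1, collected at the irradiation site, were not part of the test, and their levels are given as a description. For 37 of the 48 genes called higher and 59 of the 64 called lower, the week 1 median lay nearer to the week 4 median than to that of week 12, as it did for 59.1% of all genes tested. Cyp51 had a median of 5.88 at week 1, 6.08 at week 4 and 6.95 at week 12, and Fkbp5 had 7.33, 7.10 and 6.42. Wfdc18 had medians of 7.53, 8.65 and 9.64. Egr1 did not follow this order, with 8.48 at week 1, 7.11 at week 4 and 7.94 at week 12. Place and time cannot be told apart at week 1.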

How the data were processed

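Each of 37 mammary gland RNA samples went onto its own Affymetrix array. The authors deposited log2 expression values, for which the submitters' processing notes name RMA and oligo; versions are not given in the sources used here. They covered 35556 probe sets, from 0.817 to 13.8, with array medians of 5.04 to 5.25, and were not normalised further. The platform annotation supplied gene names: 21218 had 1 gene symbol, 1881 several and 12457 were not listed, and only the first kind was used. Of these, 21185 matched the RefSeq table and 0 symbols changed. Genes were tested when their mean over the 37 arrays lay above the 30th percentile (log2 4.04).

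A limma model (version 3.58.1, R 4.3.3) with week and treatment was fitted to 25 arrays with eBayes (20 residual and 3.51 prior degrees of freedom), two-sided, with Benjamini-Hochberg adjustment over the 13174 genes. Every adjusted p comes from limma. A model with 8 group means gave the differences within treatments and the F test. It was tested on simulated data. The precision is limited by the number of arrays.

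The comparison, the 41 gene lists and the tests were chosen with earlier results of these data known, and no list has a test of its own: of 939 entries, 855 were on the array and 802 were tested. Named genes were those 20 per direction that were called and differed most, up to 6 members per list with the largest difference and every called member, the genes called within a treatment, and the 5 with the smallest F test p. Predicted genes and olfactory receptors were counted and passed over (2 called genes), and not every gene so named is printed. The alternatives were other filters, the mean of probe sets, quantile normalisation, trend and robust settings, array weights, no treatment block, a replicate block, covariates for the mix of tissues, group means over 37 arrays, leaving out treatments, and leaving out each array.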

Additional observations from a re-analysis of the deposited data

Results flagged for a closer look

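Among the 50 values examined in the sham group of week 4, the only group with more than 3 arrays, 4 had 1 array far from the other 3. Chance alone flags about 1 in 20 groups. Sham week 4 replicate 1 stood high for Sqle, at 6.93, where the other 3 arrays lay between 6.07 and 6.21, and for the mean level of the sterol synthesis genes, at 7.44, where they lay between 6.80 and 6.87. The same array was at 8.79 for Acer2, against 8.23 to 8.29. Sham week 4 replicate 3 was low for Rassf2, at 8.65, against 9.12 to 9.14. Among the 25 arrays, sham week 4 replicate 1 also had the lowest median correlation with all other arrays of the study. Without it 209 genes were called higher and 295 lower.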

How the results depend on the processing

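The arrays limit what can be called: many adjusted p-values lay near 0.05, and leaving out 1 array moved the counts within wide ranges. The number higher ranged from 30 to 209, the number lower from 39 to 295, sterol genes called from 3 to 15 and glucocorticoid genes called from 2 to 8. Within treatments the ranges were 0 to 1 for gamma, 0 to 0 for 30 cGy Si, 1 to 9 for 10 cGy Si and 0 to 38 for sham, and the F test stayed at 0. For genes called higher and lower, and then sterol and glucocorticoid genes called, array weights gave 230, 280, 16 and 8, covariates for the mix of tissues 181, 130, 10 and 8, and 12 group means over 37 arrays 92, 124, 10 and 7. The 3 irradiated treatments gave 137, 123, 14 and 8, and leaving out gamma 3, 1, 0 and 0, 30 cGy Si 2, 0, 0 and 0, 10 cGy Si 0, 0, 0 and 0. Sham alone gave 0 in each, and there Ddit4 turned to 0.338 and Elovl6 to −0.0942. The count within 10 cGy Si was 5 with the filter at the 50th percentile, 1 with the mean of probe sets, 5 with trend and robust settings and 9 with 12 group means. With treatment and replicate number together as a replicate block the counts were 7, 11, 2 and 2. Of 12 pairs with the same number, 4 had deviations that correlated above 0.1 (range −0.475 to 0.355). With groups of 3 or 4 arrays, these correlations cannot show whether the numbers pair the samples. Counts without a filter, or with a stricter one, averaged probe sets, quantile normalisation, trend and robust settings or no treatment block stayed within 1.5 times for genes higher and lower. Quantile normalisation moved the median of all genes from −0.010 to 0.0008. The cause of these changes was not tested.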
